A study of Mus musculus with 6 samples.

Results

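Granins are acidic proteins that fill dense-core vesicles, the organelles from which neurons and endocrine cells release peptides when calcium rises. Inside these vesicles prohormone convertases cut larger precursors at pairs of basic residues, and a carboxypeptidase then trims the exposed basic residues from the new ends. Several granins are precursors themselves, and some of their genes are textbook targets of CREB, the transcription factor that binds the cAMP response element (CRE) in DNA and recruits the acetyltransferase CREBBP. Granule neurons, the most numerous cells of the cerebellum, use dense-core vesicles to release neurotrophins and other peptides.

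The 10 genes described are the granin genes Scg2, Scg3, Chga, Chgb and Vgf, the convertase genes Pcsk1 and Pcsk2, their partner genes Pcsk1n and Scg5, and the carboxypeptidase gene Cpe. They were listed by name, and each was read from the probe set annotated to that symbol alone, taking the one with the highest mean over the 6 arrays where there were several. Of the 10, 9 were matched by such a probe set, 1 each, out of 22180 genes in all. The remaining gene, Pcsk2, was not analysed here.

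The samples were whole cerebellum of mice at postnatal day 7, measured on 6 expression arrays. The knockout group (3 arrays) carried Math1Cre together with floxed Crebbp (CrebbpFl/Fl), and the wild-type group (3 arrays) carried Math1Cre with wild-type Crebbp, so Cre was present in both groups. Math1 (Atoh1) drives Cre in granule neuron precursors and a few other lineages of the dorsal hindbrain, so Purkinje cells, glia, choroid plexus and vessels are outside the main target, and whole tissue mixes them all. The comparison asks how losing Crebbp from this lineage alters expression in the developing cerebellum. Values are log2 expression values as deposited, and the differences below are knockout minus wild type on that scale.

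The promoters of these genes are shown first because CREB, which recruits CREBBP, binds the CRE. Whether either protein acts at these promoters here was not tested. RefSeq promoter windows (build GRCm38.p6) matched 8 of the 10 genes, all but Vgf and Cpe, and the 250 bases before the start of each gene were searched on both strands. The full CRE, TGACGTCA, was present in 3 of the 8 windows, those of Scg2, Chgb and Pcsk1, against 1.55% of all 32851 mouse windows of the same length. It lay close to the start in each of them, beginning 68 bases before it in Scg2, 72 in Chgb and 78 in Pcsk1. The shorter core TGACG, which every full CRE holds on both strands, was present in 7 of the 8 windows, against 17.8% of all windows. The E-box CANNTG, the motif bound by ATOH1 and other bHLH factors, was found in 6 of 8 against 66.2%. These are matches of letters and not measured binding sites. All windows were used for the shares, without matching for base content or expression. Some granin genes were already known as CREB targets, so the CRE counts are a description only. The windows of the 3 genes with a full CRE and of Chga, whose core lies 44 bases before its start, are printed 5′ to 3′ on the gene's strand, with capitals marking the full CRE and, in Chga, the core. They lie at chr1:79440027-79440276 (minus strand) for Scg2, chr2:132781392-132781641 (plus strand) for Chgb, chr13:75089607-75089856 (plus strand) for Pcsk1 and chr12:102554691-102554940 (plus strand) for Chga.
Scg2: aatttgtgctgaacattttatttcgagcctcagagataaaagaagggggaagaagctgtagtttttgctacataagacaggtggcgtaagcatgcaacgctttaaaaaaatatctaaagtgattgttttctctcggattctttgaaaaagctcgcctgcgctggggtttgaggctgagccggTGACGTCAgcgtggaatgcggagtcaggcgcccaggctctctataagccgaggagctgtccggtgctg
Chgb: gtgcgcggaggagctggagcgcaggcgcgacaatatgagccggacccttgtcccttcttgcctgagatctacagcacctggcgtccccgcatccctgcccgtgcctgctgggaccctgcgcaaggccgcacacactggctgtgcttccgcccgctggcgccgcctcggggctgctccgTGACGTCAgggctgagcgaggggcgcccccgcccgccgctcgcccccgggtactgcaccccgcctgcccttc
Pcsk1: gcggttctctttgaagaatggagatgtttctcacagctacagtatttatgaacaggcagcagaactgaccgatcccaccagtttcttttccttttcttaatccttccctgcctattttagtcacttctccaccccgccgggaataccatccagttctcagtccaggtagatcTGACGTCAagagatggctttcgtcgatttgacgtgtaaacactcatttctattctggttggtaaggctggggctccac
Chga: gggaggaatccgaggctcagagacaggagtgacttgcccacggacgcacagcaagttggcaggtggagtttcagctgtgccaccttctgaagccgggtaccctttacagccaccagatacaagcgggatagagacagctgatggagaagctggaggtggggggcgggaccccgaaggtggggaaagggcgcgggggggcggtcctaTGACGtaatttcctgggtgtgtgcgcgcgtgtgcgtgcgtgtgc

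In the knockout 1 of the 9 measured genes fell and 0 rose at a limma adjusted p under 0.05. The gene that fell was Scg2. Of all 22180 genes, 3.94% fell and 2.72% rose by the same test (6.67% in all), so 1 of 9 says little about the group as a whole. The differences of the 9 genes had a median of -0.11, against -0.00275 over all genes, and 8 of the 9 were below 0, where 50.9% of all genes were. For 4 genes (Scg2, Chga, Chgb and Vgf) the 3 knockout values all lay under the 3 wild-type values, as they did for 13.1% of all genes. In bulk tissue, fewer cells of a type and less RNA per cell cannot be told apart.

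**Figure D1:**
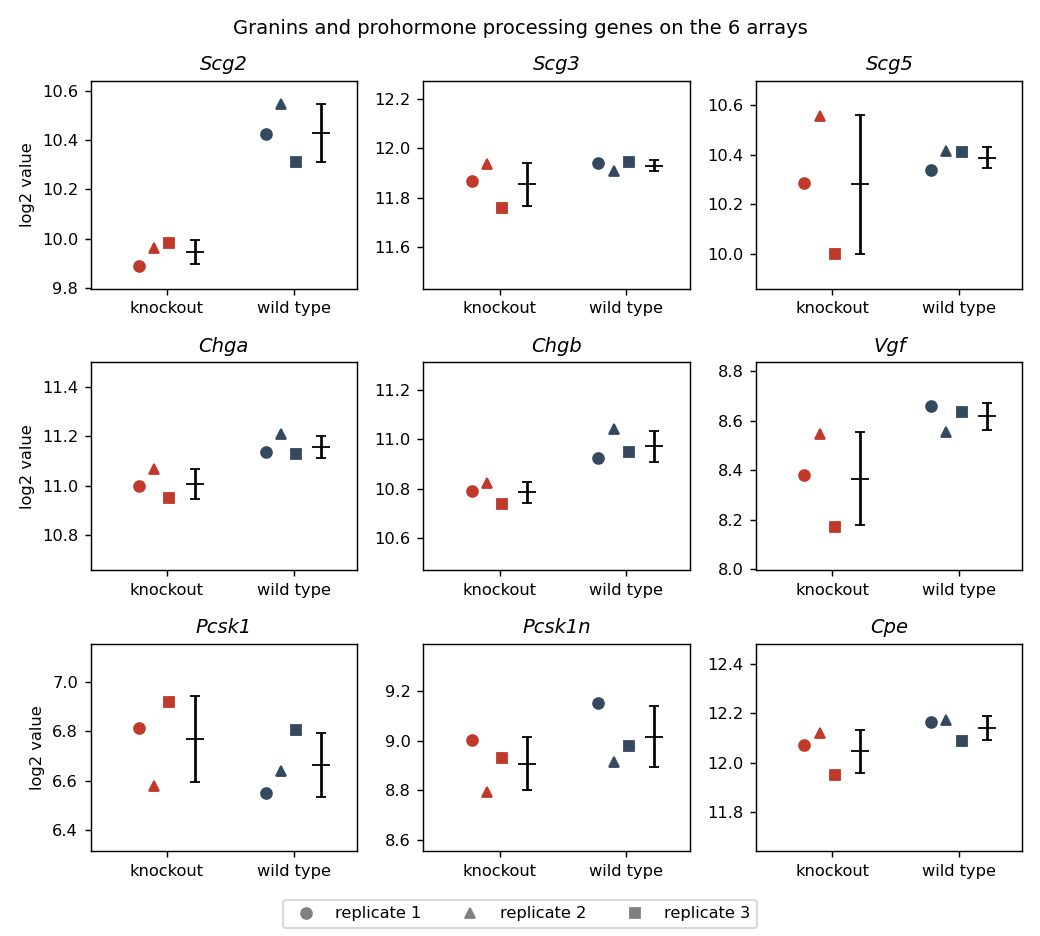
Log2 expression values (vertical axis, the same span in every panel) of the 9 measured genes on the 3 knockout arrays (red, left) and the 3 wild-type arrays (dark, right), with marker shapes for replicates and bars for mean ± SD (n = 3). Scg2 shows the widest separation, Chga and Chgb lie apart by smaller gaps, and Scg5 and Vgf spread widely within the knockout group.

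**Figure D2:**
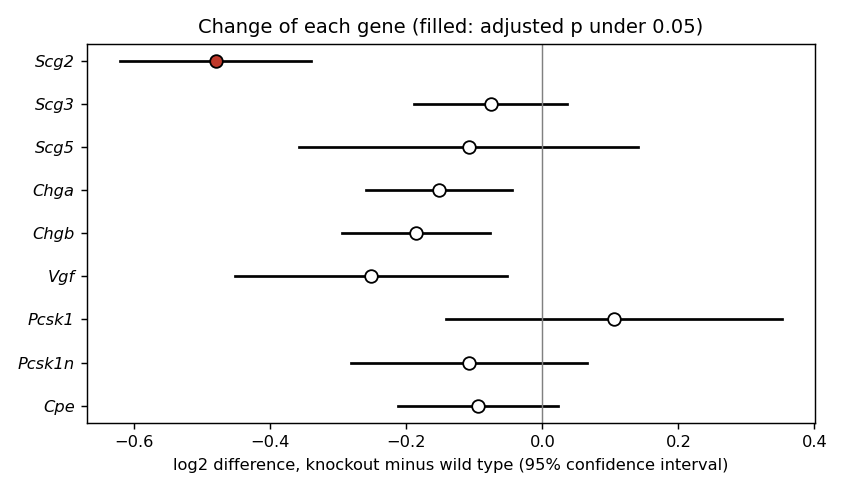
Log2 difference (knockout minus wild type, horizontal axis) of each measured gene with its 95% confidence interval from the limma fit, not adjusted for the number of genes. Scg2, the filled point at -0.48, passed at an adjusted p under 0.05, and the open points did not.

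Scg2 encodes secretogranin II, the precursor of the peptide secretoneurin. Its log2 values were 9.89, 9.97 and 9.98 on the knockout arrays, against 10.42, 10.55 and 10.31 on the wild-type arrays. All 3 knockout arrays were low and close together, and the gap between the groups, 0.33, was wider than the range within either of them (0.0926 in knockout and 0.23 in wild type). The means were 9.95 ± 0.05 in knockout and 10.43 ± 0.12 in wild type (SD, n = 3 each). The difference was -0.48 (SE 0.06, 95% confidence interval -0.62 to -0.34, limma adjusted p = 0.0023), so that expression fell by 28.3% in the knockout. Scg2 stood at position 172 of the 22180 genes ordered by p. It passed whichever single array was left out, with differences from -0.54 to -0.42 and adjusted p up to 0.0172. Without the 3 arrays that read high for choroid plexus genes (below), which leaves 1 knockout array, its difference was -0.46 but it no longer passed (adjusted p = 0.0955).

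The chromogranin genes Chgb and Chga, whose acidic products bind calcium and condense the vesicle core, lay apart between the groups by less. Chgb read 10.79, 10.82 and 10.74 in knockout and 10.92, 11.04 and 10.95 in wild type. Its groups did not overlap, and its difference of -0.19 (SE 0.05, 95% confidence interval -0.29 to -0.08) missed the threshold narrowly (limma adjusted p = 0.0511). Of 19 alternative settings 4 put it under the threshold and 15 did not, with limma adjusted p from 0.0308 to 0.555. Chga read 11.00, 11.07 and 10.95 in knockout and 11.14, 11.21 and 11.13 in wild type. Again no knockout array reached a wild-type one, and the difference was -0.15 (SE 0.05, 95% confidence interval -0.26 to -0.05, limma adjusted p = 0.0982).

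Vgf encodes a granin-like precursor that neurotrophins and neuronal activity induce. Its values were 8.38, 8.54 and 8.17 in knockout and 8.66, 8.55 and 8.64 in wild type. The groups came within 0.00921 of each other, and knockout replicate 2 read like a wild-type array. The difference of -0.25 (SE 0.09, 95% confidence interval -0.45 to -0.05) did not pass (limma adjusted p = 0.139). Without knockout replicate 2 it was -0.34 and passed (limma adjusted p = 0.0404).

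Scg3 encodes secretogranin III, which binds cholesterol-rich vesicle membrane and holds chromogranin A there. It read 11.87, 11.93 and 11.76 in knockout and 11.94, 11.91 and 11.94 in wild type. The groups overlapped, since knockout replicate 2 lay among the wild-type arrays, and the difference was -0.08 (SE 0.05, 95% confidence interval -0.19 to 0.04, limma adjusted p = 0.464). Among the 5 granins the difference thus ran from -0.48 in Scg2 to -0.08 in Scg3, and whether these differ from each other was not tested.

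Pcsk1 encodes the prohormone convertase PC1/3, which makes the early cuts in peptide precursors. Its values of 6.81, 6.58 and 6.92 in knockout and 6.55, 6.64 and 6.81 in wild type were mixed. Pcsk1 was the only measured gene of the 9 with a difference above 0 (0.11, SE 0.11, 95% confidence interval -0.14 to 0.35, limma adjusted p = 0.678). The sign turned to -0.0184 when the mean of choroid plexus markers entered the fit, and its mean in both groups lay under the median of all probe sets on each array (at least 7.25), with no detection call. The 3 genes with a full CRE near the start, Scg2, Chgb and Pcsk1, had differences from wild type of -0.48, -0.19 and 0.11.

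The partners of the convertases gave no call either. Pcsk1n encodes proSAAS, an inhibitor of PC1/3, and is X-linked. It read 9.003, 8.792 and 8.931 in knockout and 9.155, 8.916 and 8.981 in wild type, which overlap (difference -0.11, SE 0.08, 95% confidence interval -0.28 to 0.06, limma adjusted p = 0.507). Scg5 encodes 7B2, the chaperone and inhibitor of the convertase PC2. Its knockout values, 10.285, 10.558 and 9.997, reached both above and below the wild-type values of 10.340, 10.414 and 10.412. The mean difference of -0.11 (SE 0.11, 95% confidence interval -0.36 to 0.14, limma adjusted p = 0.671) therefore rests on knockout replicate 3, and without that array it was 0.0329.

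Cpe encodes carboxypeptidase E, which removes the basic residues the convertases leave and also serves in sorting cargo into vesicles. It read 12.07, 12.12 and 11.95 in knockout and 12.16, 12.17 and 12.09 in wild type. Knockout replicate 2 lay above wild-type replicate 3, and the difference was -0.09 (SE 0.05, 95% confidence interval -0.21 to 0.02, limma adjusted p = 0.365). For Cpe the interval leaves room for expression in knockout between 0.863 and 1.02 times that of wild type. For Scg3 the same bounds are 0.878 and 1.03, and for Scg5 they are wider, 0.78 and 1.103.

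The arrays of the knockout group differed from each other in a way that several of these genes shared. Knockout replicate 3 was the lowest of the 6 arrays for 6 of the 9 genes (Scg3, Scg5, Chga, Chgb, Vgf and Cpe), and knockout replicate 2 was the highest knockout array for the same 6. Scg2 and Pcsk1 had knockout replicate 3 as their highest knockout array, and Pcsk1n had knockout replicate 1. Markers of other cells in the tissue moved along the same arrays. The mean log2 value of 9 oligodendrocyte lineage markers was 9.09, 9.50 and 8.75 on knockout replicates 1, 2 and 3, against 9.64, 9.58 and 9.54 in wild type. Of these 9 markers 1 fell (3.94% of all genes did) and 0 rose (2.72%). The marker that fell was the myelin gene Mog (limma adjusted p = 0.0415), which passed in 2 of 6 fits with an array left out. The mean of 9 choroid plexus markers was 8.984, 7.375 and 9.564 in knockout and 7.995, 7.230 and 7.360 in wild type, with 0 of 9 past the threshold. Ttr, the most abundant choroid plexus transcript, read 13.77, 9.19 and 13.92 in knockout and 12.30, 8.08 and 8.91 in wild type. The order of the oligodendrocyte means within the knockout group also held for lists that entered no fit. Means on knockout replicates 1, 2 and 3 were 9.29, 9.33 and 9.09 for inhibitory interneurons, against 9.18, 9.19 and 9.15 in wild type. The microglial means were 8.51, 8.58 and 8.37, against 8.44, 8.43 and 8.45 in wild type. The maturing granule neuron, unipolar brush cell and meningeal lists did not keep it. Which cells the granin values followed was not tested.

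**Figure D3:**
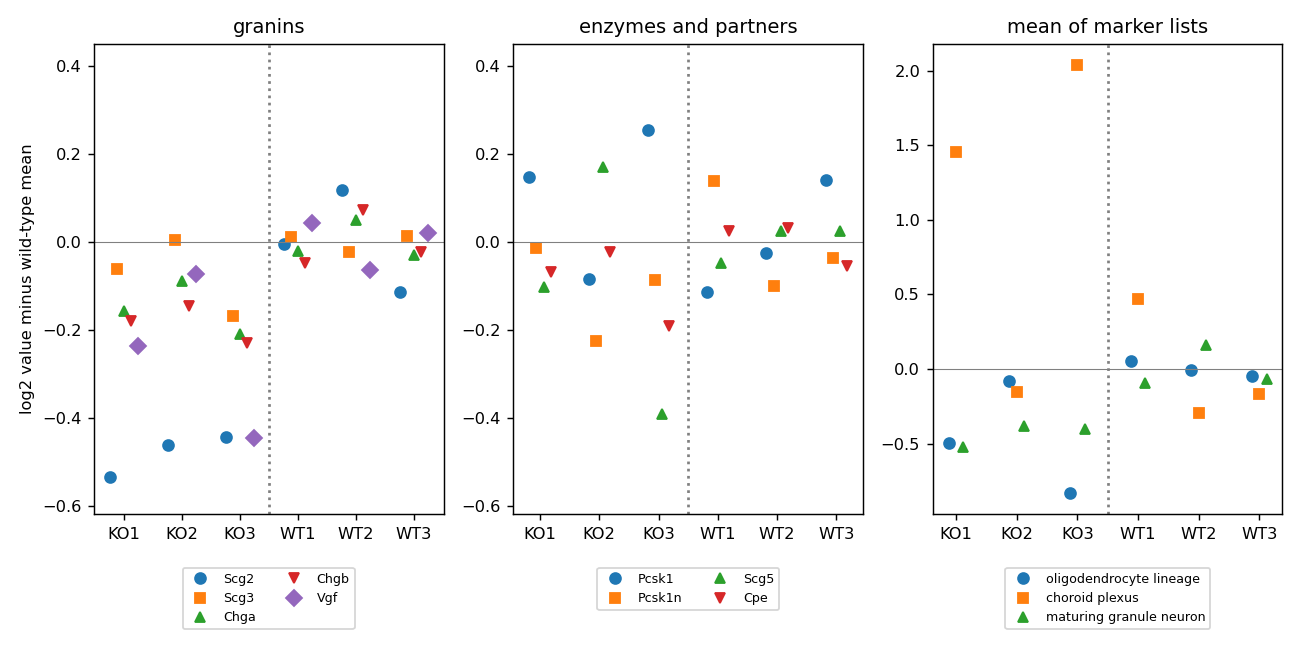
Log2 value minus the wild-type mean (vertical axis) on each of the 6 arrays, knockout (KO1 to KO3) left of the dotted line and wild type (WT1 to WT3) right of it, for the granins, for the enzymes with their partners, and for the means of 3 marker lists on a wider scale. Scg2 is low on all 3 knockout arrays, while Vgf, Scg5, Scg3 and Cpe are lowest on knockout replicate 3, the array with the lowest oligodendrocyte and highest choroid plexus mean.

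The part of oligodendrocytes and choroid plexus in the granin values was examined only by adding each of their marker means to the fit, which leaves few degrees of freedom. The oligodendrocyte mean was itself lower on every knockout array (at most 9.50) than on any wild-type array (at least 9.54). A fit with that mean therefore cannot fully separate it from genotype. With the oligodendrocyte mean, an alternative added after the values had been seen, the difference of Scg2 was -0.48 (limma adjusted p = 0.0411), that of Chgb -0.14, that of Chga -0.08 and that of Vgf -0.02. With the choroid plexus mean these were -0.47 (limma adjusted p = 0.0250), -0.14, -0.09 and -0.11. Only Scg2 of the 9 genes passed in either fit. The difference of Scg5 turned to 0.23 and 0.14 and did not pass.

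Other checks of the arrays were as follows. Crebbp read 11.46, 11.42 and 11.32 in knockout and 11.96, 11.99 and 11.90 in wild type (difference -0.56, SE 0.05, limma adjusted p = 0.000354), so every array lay on its label's side. No source used here says whether its probe set covers the deleted part. Xist read above 12 on knockout replicate 3 and wild-type replicates 1 and 2, so sex was mixed in both groups. Knockout replicate 3 was the only knockout array with high Xist, so its sex cannot be told apart from its other traits. With Xist in the fit the difference of Scg2 was -0.44 (limma adjusted p = 0.00553), and only Scg2 of the 9 genes passed. Vgf was then -0.30 and Scg5 -0.17, against -0.25 and -0.11 in the main fit. Beside the marker counts that follow stand the shares over all genes, of which 3.94% fell and 2.72% rose. Markers of maturing granule neurons fell in 5 of 10 cases and rose in 0, with list means of 9.39 to 9.53 in knockout and 9.82 to 10.08 in wild type. Early and migrating granule neuron markers fell in 9 of 14 cases and rose in 1 (11.15 to 11.23 in knockout, 11.39 to 11.46 in wild type). Of 8 unipolar brush cell and cerebellar nucleus markers 2 fell and 1 rose (7.92 to 7.99 in knockout, 8.09 to 8.25 in wild type). The calls were 1 rise and 1 fall of 9 Purkinje cell, 2 rises and 1 fall of 10 astrocyte, 1 rise of 8 microglial, 0 of 7 inhibitory interneuron and 0 of 10 meningeal and vessel markers. The part of the granule neuron and unipolar brush cell markers in the fall of Scg2 was not tested.

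The machinery that forms dense-core vesicles and releases their contents was then read from a list of 25 genes, all measured. Of these 7 fell, 2 rose and 16 did not pass, where 3.94% of all genes fell and 2.72% rose. The median difference was -0.07, against -0.00275 over all genes. Syt9, a calcium sensor for vesicle release, fell most. It read 9.46, 9.46 and 9.38 in knockout and 9.83, 10.07 and 9.97 in wild type, with no overlap (difference -0.52, SE 0.06, limma adjusted p = 0.00194), and it passed whichever array was left out. Cadps and Cadps2 encode CAPS1 and CAPS2, which prime dense-core vesicles for fusion. Cadps read 11.12, 11.12 and 10.98 in knockout and 11.39, 11.46 and 11.31 in wild type, and Cadps2 read 11.01, 10.84 and 11.10 against 11.29, 11.49 and 11.32 in wild type. Neither gene's groups overlapped, and they fell by 0.31 (SE 0.06, limma adjusted p = 0.0104) and 0.39 (SE 0.07, limma adjusted p = 0.0145). Cadps2 is also among the maturing granule neuron markers.

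The vesicle GTPase genes Rab3d and Rab3a fell by 0.38 and 0.21, and the calcium sensor gene Syt7 by 0.36. Leaving out 1 array ended some of these calls. Without wild-type replicate 1 the limma adjusted p was 0.0581 for Cadps, 0.0651 for Rab3a and 0.0811 for Syt7. Without wild-type replicate 2 it was 0.0532 for Cadps2 and 0.0648 for Syt7, and without knockout replicate 1 it was 0.0564 for Syt7. Rab3d passed in all 6 such fits. The other 3 calls, named after their values were seen, were weaker. Hid1, needed for vesicle formation, fell by 0.25, while Ptprn, a vesicle membrane protein, and Ica1 rose by 0.22 and 0.27. Hid1 and Ptprn passed in 0 of the 6 fits with an array left out (limma adjusted p up to 0.192 and 0.146), and Ica1 in 1 of them, that without knockout replicate 3. With either marker mean in the fit, Syt9, Cadps2 and Rab3d were the genes of the 7 falls that passed.

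The other proteases and modifying enzymes of the secretory pathway included 0 falls. Of 16 measured genes 3 rose and 13 did not pass, where 2.72% of all genes rose and 3.94% fell. The median difference was 0.08. Ctsl, encoding cathepsin L, a lysosomal protease that also cuts some prohormones, rose by 0.30 (SE 0.05, limma adjusted p = 0.00509). It read 10.93, 10.94 and 10.85 in knockout and 10.62, 10.64 and 10.58 in wild type, and it passed whichever array was left out. Pcsk6 (PACE4) and Pcsk5 (PC5/6), convertases that act mostly outside dense-core vesicles, rose by 0.28 and 0.26. The call of Pcsk6 was lost without knockout replicate 1 (limma adjusted p = 0.057) or wild-type replicate 1 (0.0734), and Pcsk5 passed in 1 of the 6 fits, that without knockout replicate 3. With either marker mean in the fit Ctsl passed, and Pcsk6 and Pcsk5 did not.

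A list of 23 genes held neuropeptide precursors and related secreted proteins, the cargo on which the enzymes act. Of these 1 rose (2.72% of all genes did), 0 fell (3.94%) and 22 did not pass (median difference 0.07). The one that rose was Tac2, the precursor of neurokinin B, which read 7.84, 8.01 and 8.56 in knockout and 7.12, 7.25 and 7.17 in wild type (difference 0.96, SE 0.15, limma adjusted p = 0.00648). The wild-type values of Tac2 lay under the medians of all probe sets on those arrays (7.261, 7.254 and 7.262), with no detection call. Knockout replicate 3 was its highest array, and without that array the difference was 0.74. Its call was lost when the mean of the choroid plexus markers (limma adjusted p = 0.0612) or of the oligodendrocyte markers (0.139) entered the fit.

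**Figure D4:**
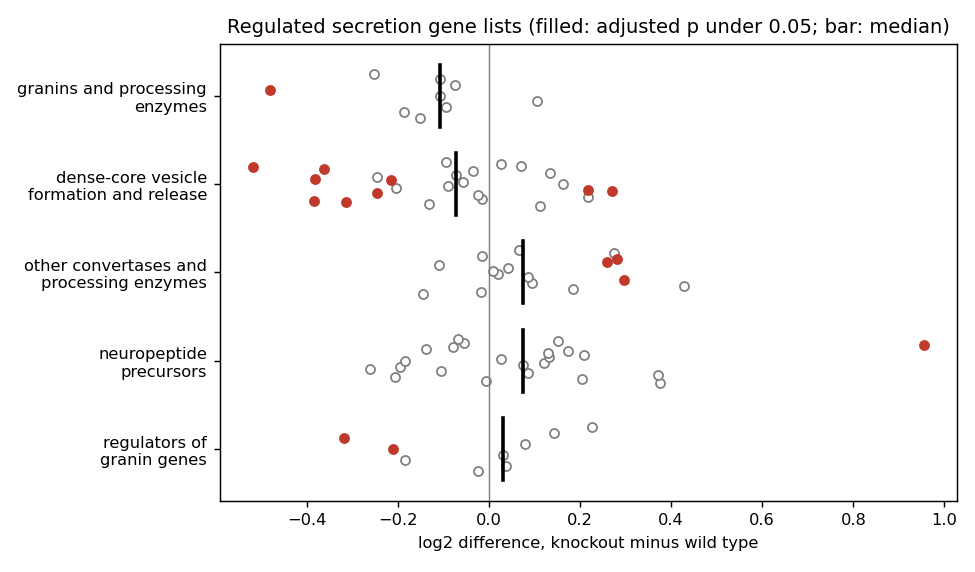
Log2 difference (knockout minus wild type, horizontal axis) of each measured gene in the granin and processing group and in 4 lists of the regulated secretory pathway, with filled points for an adjusted p under 0.05 and a black bar for each list's median. Falls lie among the granins, the dense-core vesicle genes and the regulators, and rises among the dense-core vesicle genes, the other enzymes and the peptide precursors.

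Of 9 measured regulators of granin genes 2 fell (3.94% of all genes did), 0 rose (2.72%) and 7 did not pass (median difference 0.03). Insm1, a zinc finger factor of neuroendocrine cells and newborn neurons, read 9.54, 9.63 and 9.60 in knockout and 9.94, 9.92 and 9.86 in wild type. It fell by 0.32 (SE 0.05, limma adjusted p = 0.00556) and passed whichever array was left out, but not with the oligodendrocyte mean in the fit (limma adjusted p = 0.0976). The CREB coactivator gene Crtc3 fell by 0.21 (limma adjusted p = 0.0454) but passed in 0 of the 6 fits with an array left out. Rest, which encodes the repressor of neuronal genes that acts on granin genes, is named outside the rule and had a difference of 0.23 that did not pass (limma adjusted p = 0.118). It passed in 0 of the 6 fits with an array left out. Creb1, Crem and Ep300 of the same list, also named outside the rule, did not pass either (limma adjusted p = 0.831, 0.863 and 0.413).

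Genes with a full CRE in a promoter window were set beside the rest as a description. Of 390 such genes 20 fell (5.13%) and 12 rose (3.08%), with a median difference of 0.00236. Of 16600 genes whose windows held none, 3.88% fell and 2.65% rose, with a median of -0.00303. Scg2 was among the 20, and Chgb and Pcsk1 were among those that did not pass.

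The genes whose values followed Scg2 most closely over the 6 arrays were Arhgap10, Nrep and Trmt9b, with Pearson's r of 0.998, 0.997 and 0.997. The group difference is part of this likeness, and with 6 arrays and 22180 genes some high values arise in any such search. They fell by 0.34, 0.21 and 0.59 (limma adjusted p = 0.00815, 0.0137 and 0.00372). None of the 3 is among the granin or pathway lists.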

How the data were processed

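Total RNA of whole cerebellum was hybridised to 3 knockout and 3 wild-type expression arrays, per the labels. The deposited values are log2 values, 1 for each probe set and array, and RMA and oligo are named without versions per the submitters' processing notes. No source used here gives the array's build or any filter. The values were used as deposited. Of 41345 probe sets, GEO's platform annotation gave 1 symbol to 23521, several to 1814 and none to 16010. For genes with several, the brightest by mean over the arrays was kept.

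Knockout and wild type were compared by limma 3.58.1 (R 4.3.3; lmFit, then eBayes with a trend), two-sided, with p-values adjusted by Benjamini-Hochberg over 22180 genes. The labels do not say that each array is a separate animal. Xist differed within both groups, so each held more than 1 animal, but whether every array had its own is not known, and the p-values reflect the spread among these samples. The fit was also run on simulated data with independent noise in each gene. Shifts in cell content shared by many genes were not simulated, so that run does not bear on them. Precision is limited by the number of arrays.

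The genes and the lists were chosen with earlier results of these data known. Named genes follow a rule: all 10 genes, Crebbp, Ttr, Xist and up to 6 past the threshold from each of 4 pathway lists. It adds the 3 genes most like the gene with the smallest p. Marker list members that passed could also be named, of which Mog is named and most others are not. Rest, Creb1, Crem, Ep300, Hid1, Ptprn and Ica1 are named outside the rule. No protein sequences were used. Alternatives covered the variance prior, dim genes, normalization, array weights, the replicate block, probe sets, covariates, thresholds and left-out arrays.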

Additional observations from a re-analysis of the deposited data

How the results depend on the processing

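Scg2 kept its direction under all 19 alternatives and lost its call under 1, the fit without the 3 arrays with Ttr above 10 (-0.46), where the lone knockout array is assumed to vary like the wild-type ones. Chga, Chgb, Vgf and Pcsk1n kept their direction in all 19. The settings for the variance prior, dim genes, the replicate block and probe sets cannot move the differences of these genes. They bear on the p-values only and are no test of direction. With the choroid plexus mean in the fit Scg5 turned to 0.14 and Pcsk1 to -0.0184. Without the 3 arrays with Ttr above 10 Scg3 was 0.00970, Scg5 0.15 and Pcsk1 -0.14. With the oligodendrocyte mean, chosen after seeing the data, Scg3 was 0.0303, Scg5 0.23, Pcsk1 -0.13 and Cpe 0.0133. With single arrays left out Scg5 ran from -0.25 (without knockout replicate 2) to 0.0329 (without knockout replicate 3). The cause of these reversals was not tested further.

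The number of the 9 genes that fell was 1. It was 2 (Scg2 and Chgb) with a robust prior, without dim genes, with array weights or with the replicate block, 3 (with Chga) at an adjusted p under 0.1, 0 without the high Ttr arrays, and 1 to 2 with single arrays left out. Replicates with the same number did not deviate together (r = 0.0135, 0.0297 and -0.133). Pairs with different numbers ran from -0.136 to 0.118. With 3 arrays per group these values cannot decide whether the numbers pair the samples.

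Over all genes, 604 rose and 875 fell. The counts were 184 and 310 without a trend, 236 and 277 with the choroid plexus mean, 145 and 185 with the oligodendrocyte mean, 112 and 124 without the high Ttr arrays, 148 and 343 at 0.01, and 1023 rises at 0.1. Single arrays left out gave 199 to 478 rises and 366 to 800 falls. In the 4 pathway lists together 6 rose and 9 fell. The counts were 2 and 3 without a trend, 1 and 4 with the choroid plexus mean, 2 and 3 with the oligodendrocyte mean, 1 and 2 without the high Ttr arrays, and 2 and 3 at 0.01. Single arrays left out gave 2 to 7 rises and 4 to 8 falls. Without a detection call, dim genes such as Pcsk1 have uncertain differences.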
